A study of Mus musculus with 16 samples.

Results

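The regions described here are stretches of the mouse genome, called as Meis1 peaks in the heart ventricle, that lie more than 50 kb from every protein-coding gene. They were found in 4 deposited Meis1 peak lists from chromatin immunoprecipitation sequencing (ChIP-seq), in which DNA bound by a protein is recovered with an antibody and sequenced. Peaks of the 4 lists that shared at least 1 bp on chromosomes 1 to 19 were merged into 5005 regions, of which 2312 were called in 2 or more lists. Of these, 502 (21.7%) lay more than 50 kb from the body of every protein-coding gene of the mm10 assembly. They are called distant regions below, and the other 1810 are called near regions. The distant regions were chosen by measured values, the Meis1 calls of these same 4 lists, and by position: without control list 1 there would be 303 distant regions, and without control list 2 there would be 318.

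Mice received intraperitoneal injections from postnatal day 7 for 7 days, and hearts were taken at postnatal day 15. The treatment was a combination of Paromomycin and Neomycin, aminoglycosides that bind bacterial ribosomes, here named Paro/Neo and dosed at 150 mg/kg 2 times a day. Control animals received the vehicle, PBS. Each group had 2 Meis1 and 2 Hoxb13 ChIP-seq samples, made from ventricles, and the Meis1 antibody was directed at Meis1/2, so these proteins cannot be told apart. No strain, sex or allele is named in the labels, which describe ventricles of 2 hearts used as biological duplicates. No peak list for an input sample was used here, and peak lists hold no expression values by which the cell types of the tissue could be checked.

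Meis1 is a homeodomain protein of the TALE class that binds DNA at the core TGACAG, often beside Pbx and Hox partners. In the heart it is known for its part in development and in the exit of cardiomyocytes from the cell cycle after birth, where Hoxb13 has been described as its partner. Enhancers can act on promoters across long stretches without genes, often past nearer genes, so a flanking gene is a position and not a target.

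The autosomal peaks of each Meis1 list numbered 3494 and 3130 in controls and 1528 and 1010 after Paro/Neo, so both treated lists were shorter. The Hoxb13 lists were far less even, with 5135 and 1109 autosomal peaks in controls and 811 and 16742 after Paro/Neo. For the second Meis1 replicates, the letters in the file names go against the labels. The labels were followed, and the exchanged assignment was run as an alternative. Read depth was not given in the sources used here. A region that is not in a list is therefore only not called, and a fold is the authors' deposited enrichment at a peak. To compare peaks across lists, each fold was also given its percentile among the peaks of its own list, from 0 to 100, and a region's mean percentile is the mean over the lists that called it.

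Sequence could be shown where a distant region reached the start of a noncoding gene. RefSeq gave 7 such promoter windows (GRCm38.p6, the mm10 assembly, each 250 bases before to 50 bases after the start), and all 7 belonged to long noncoding RNA genes. The shared bases of 5 of them are printed 5′ to 3′ on the strand of the gene, to show the Meis core, with TGACAG or its reverse complement CTGTCA in capitals. They are chr16:5431144-5431443 (+ strand) for Gm41414, chr17:16951286-16951585 (+) for BC002059, chr4:50827014-50827251 (−) for Gm42288, chr16:30008645-30008716 (+) for 4632428C04Rik and chr9:24974172-24974257 (+) for E130101E03Rik.
Gm41414: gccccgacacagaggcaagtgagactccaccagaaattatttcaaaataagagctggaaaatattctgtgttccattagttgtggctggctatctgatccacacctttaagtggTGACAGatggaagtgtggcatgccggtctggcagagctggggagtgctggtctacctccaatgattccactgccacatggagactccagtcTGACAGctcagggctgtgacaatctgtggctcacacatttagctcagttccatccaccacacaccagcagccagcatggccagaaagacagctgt
BC002059: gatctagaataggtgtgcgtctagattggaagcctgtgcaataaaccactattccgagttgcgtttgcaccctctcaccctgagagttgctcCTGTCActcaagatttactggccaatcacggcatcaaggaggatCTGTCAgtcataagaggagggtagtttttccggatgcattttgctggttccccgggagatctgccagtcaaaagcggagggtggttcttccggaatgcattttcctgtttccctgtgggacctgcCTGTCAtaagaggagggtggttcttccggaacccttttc
Gm42288: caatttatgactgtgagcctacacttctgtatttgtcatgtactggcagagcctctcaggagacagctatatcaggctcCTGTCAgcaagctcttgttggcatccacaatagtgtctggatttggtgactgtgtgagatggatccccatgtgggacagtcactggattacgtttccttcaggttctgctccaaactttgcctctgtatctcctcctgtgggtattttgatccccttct
4632428C04Rik: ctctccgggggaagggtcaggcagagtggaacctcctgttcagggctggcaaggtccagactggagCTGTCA
E130101E03Rik: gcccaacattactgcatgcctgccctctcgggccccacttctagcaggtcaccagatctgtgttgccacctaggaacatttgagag
The stretch at Gm41414 held 2 cores and was called in all 4 Meis1 lists. The stretch at BC002059 held 3 cores and was called in both controls alone. The stretches at Gm42288 and 4632428C04Rik held 1 core each, and the stretch at E130101E03Rik, between Tbx20 and Herpud2, held 0. The shared bases at Gm24474 and A530006G24Rik, which are not printed, also held 0. The window of A530006G24Rik held 1 core, outside its shared bases, and is counted with the whole windows that follow. Searched on both strands, TGACAG stood in 5 of the 7 whole windows, in 19.05% of all 31396 promoter windows and in 20.2% of the windows of long noncoding RNA genes. Of the 224 windows that shared bases with any Meis1 region called in 2 or more lists, distant or near, 124 (55.4%, exact binomial 95% interval 48.6 to 62.0) held it. CAATAAA, a core known for Hoxb13, stood in 2 of the 7 windows, in 4.50% of all windows and in 2.68% of the 224. A match is a string of letters in a window and does not show a bound site.

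The distant regions were short and spread over all 19 autosomes. Their median width was 322 bp, against 320 bp for near regions. The median distance to the nearest gene body was 147 kb, the quartiles were 81.4 and 263 kb, and the range was 50.1 to 1521 kb. By distance, 171 lay at 50 to 100 kb, 158 at 100 to 200 kb, 130 at 200 to 500 kb, 34 at 500 to 1000 kb and 9 beyond 1000 kb. The farthest were chr5:59654289-59654546, 1521 kb from Pcdh7, chr4:30408570-30408856, 1441 kb from Epha7, and chr14:91604683-91604947, 1409 kb from Pcdh9. Pcdh7 and Pcdh9 are protocadherins, which are cell adhesion proteins, and Epha7 is a receptor for ephrins. None of the 3 was called in both Paro/Neo lists, and the region near Epha7 was called in 1 of them.

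The threshold of 50 kb did not fall at a break in the data. Just inside it, chr1:92699013-92699368 lay 50.1 kb from Otos and was called in all 4 lists, and regions at 50.3 kb from Ppp2r3a and 50.5 kb from Cstad were called in 2. Just outside it, chr10:6418265-6418612 lay 49.8 kb from Gm3213 and was called in all 4 lists, and regions 49.7 kb from Rgma and 49.5 kb from Ipo5 were called in 3 and 2. Rgma, a gene of axon guidance, thus had Meis1 regions on both sides of the threshold, since chr7:73319941-73320328, 55.2 kb away, was inside it.

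Stretches between neighbouring genes and more than 50 kb from both made up 863 of 2429 Mb of the autosomes (35.5%). They held 494 of the distant regions, at 0.572 per Mb, against 1.16 near regions per Mb of the rest. On single chromosomes the density ran from 0.263 per Mb on chromosome 6 to 0.821 per Mb on chromosome 9. The small gene-free intervals held more regions per Mb than the large ones. Intervals with under 100 kb of distant space held 1.30 distant regions per Mb, and those with 1000 kb or more held 0.269. A noncoding gene was overlapped by 121 distant regions (24.1%), of which 118 lay in a long noncoding RNA gene. A further count, on the distance to every noncoding gene, found 114 regions (22.7%) more than 50 kb from these as well.

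The strongest distant regions were called in all 4 lists and stood near genes of several kinds. The region with the highest mean percentile was chr17:73022480-73023196, in the long noncoding RNA gene Gm30420, 80.5 kb from Lbh and 84.8 kb from Lclat1. Lbh encodes a transcription cofactor that is expressed in limb bud and heart. Its deposited folds were 16.9 and 18.8 in controls and 13.8 and 19.5 after Paro/Neo, and it was the highest-ranked peak of Paro/Neo list 2 at percentile 100.0.

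The next was chr1:120758107-120758965, 150.1 kb from En1, a homeobox gene known for its part in brain patterning, and in the noncoding gene 2610027F03Rik. Its folds were 13.1 and 15.3 in controls and 14.2 and 19.1 after Paro/Neo. Its lowest percentile in any list was 99.2. Next came chr3:149508697-149509169, 519.6 kb from Adgrl2, which encodes an adhesion receptor of the latrophilin family, with folds of 15.3, 16.7, 11.1 and 10.3 in the same order of lists (control 1, control 2, Paro/Neo 1, Paro/Neo 2). This order is kept below. At chr9:30137716-30138305, 174.4 kb from Ntm, which encodes a neural adhesion protein, the folds were 11.0, 13.9, 11.4 and 12.6.

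Others of the 12 strongest lay beside genes with a known place in heart or signalling. The region chr11:111214926-111215346 was 138.1 kb from Kcnj2, which encodes an inward rectifier potassium channel of cardiomyocytes, and its folds were 17.0, 15.3, 10.8 and 8.92. The region at Gm41414, whose sequence is printed above, lay 175.1 kb from Eef2kmt and 453.3 kb from Rbfox1, a splicing regulator of muscle and neurons, with folds of 15.1, 11.3, 10.3 and 10.5. At chr10:121153589-121154091, 52.9 kb from the Wnt inhibitor Wif1, the folds were 13.5, 15.5, 10.7 and 8.54. The lowest percentile of these 3 in any list was 94.8, for the region near Wif1 in Paro/Neo list 2. The remaining 5 of the 12 lay nearest to Olfr1505, Otos, Sec61b, Eea1 and Rgma, with mean percentiles between 98.1 and 98.9.

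Genes on either side of the distant regions numbered 671, or 3.25% of the 20665 autosomal protein-coding genes. Of the 4103 genes that border one of the stretches more than 50 kb from genes, 670 (16.3%) flanked a distant region. Of 30 cardiac transcription factor genes, 10 flanked a distant region, which is 10 of the 23 that border such a stretch. Among these were Gata6, Hand2, Irx3, Irx5, Mef2c, Myocd, Tbx3 and Tbx20. The stretches beside genes of this list held 17 distant regions in 12.4 Mb, or 1.37 per Mb, against 0.572 per Mb over all such stretches. The median distant space of the stretches beside this list was 318 kb, and all stretches with 200 to 500 kb of it held 0.987 per Mb. These counts describe the list, were not matched for the size of a stretch and carry no test.

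Beside Tbx3, which patterns the conduction system, the region chr5:119575070-119575472 lay 95.1 kb away in the noncoding gene AW549542. Its folds were 11.0, 13.3, 8.44 and 11.7. Beside Irx3, which acts in ventricular conduction, chr8:91987916-91988371 lay 186.3 kb away, with Irx5 at 369.4 kb on the other side, and its folds were 13.2, 11.0, 9.11 and 5.35. Both regions were thus called in both groups. Beside Tbx3 the folds of the groups overlapped, with 11.7 in Paro/Neo list 2 above 11.0 in control list 1. Beside Irx3 both folds after Paro/Neo were below those in controls. Beside Hand2, a bHLH factor of the right ventricle, chr8:57205091-57205412 lay 115.6 kb away with folds of 7.64, 7.57, 5.33 and 4.58. The folds of this region in controls were thus above those after Paro/Neo. Hand2 flanked 3 distant regions, which were called at 2 and 3 in controls and at 3 and 1 after Paro/Neo. Beside Gata6, a zinc finger factor of cardiac development, chr18:11144970-11145353 lay 59.3 kb away with folds of 5.06, 5.63, 4.19 and 4.78. The 4 regions given with coordinates were called in all 4 lists. Folds in controls were above those after Paro/Neo beside Gata6 too, and at the regions near Kcnj2 and Wif1 described above. Near Lbh and En1 the folds of the groups overlapped. How often either order held over all regions called in 4 lists was not counted, so it is not given as a trait of these genes. The regions beside Mef2c and Myocd, factors of muscle genes, were each called in 2 lists.

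Tbx20 and Tbx18, T-box factors of the heart, flanked several distant regions, none of them called in all 4 lists. The 4 distant regions between Tbx20 and Herpud2 stood within chr9:24896563-24974686. All 4 were called in control list 1, 3 in control list 2, 3 in Paro/Neo list 1 and 0 in Paro/Neo list 2. The 3 regions beside Tbx18 were called at 3 and 3 in controls and at 1 and 1 after Paro/Neo. The region that reaches the start of E130101E03Rik, whose shared bases are printed above, was called in both controls alone.

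Of 14 TALE homeobox genes outside the cardiac list, 8 border a stretch more than 50 kb from genes. Of these, 3 flanked a distant region, and one of them was Meis1 itself. The region chr11:19143280-19143560 lay 123.6 kb from Meis1, with folds of 7.41, 4.80 and 7.32 in both controls and Paro/Neo list 1 and no call in Paro/Neo list 2. Beside Irx1, chr13:72023638-72023960 lay 59.9 kb away, with Irx2 on its other side, and had folds of 9.99, 12.8, 6.09 and 7.17. A list of 39 developmental genes, homeobox genes outside the TALE class with the LIM-only gene Lmo4, is not complete. It does not hold En1, which flanked one of the strongest regions, nor Hlx, Gsc, Msx2, Pou3f1 and Isx, homeobox genes that also flanked distant regions, so its count does not stand for the class. Of these 39, Pou3f3 alone flanked a distant region, and 26 border a stretch more than 50 kb from genes. The density beside these was 0.179 per Mb. Of 48 SOX, FOX and other developmental regulators, 44 border such a stretch and 15 flanked a distant region, at 0.538 per Mb. Among the 15 were Sox9, Sox4, Hes1 and Klf4.

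Genes of contraction and conduction flanked distant regions at densities above the 0.572 per Mb of all stretches, which were not matched for size. The median distant space was 161 kb beside sarcomere genes and 193 kb beside genes of calcium handling and conduction. All stretches with 100 to 200 kb of distant space held 0.936 per Mb. Of 28 sarcomere genes, 5 border a stretch more than 50 kb from genes, and Ankrd1 and Tpm1 flanked a distant region. The density beside this list, 1.21 per Mb, rests on 2 distant regions in 1.66 Mb. The region chr19:36229355-36229686 lay 109.5 kb from Ankrd1, which encodes a stress-responsive ankyrin repeat protein of cardiac muscle, with folds of 12.2, 10.7, 7.65 and 6.12. The region chr9:67163710-67164225 lay 114.0 kb from Tpm1, which encodes the thin filament protein tropomyosin, with folds of 6.54 and 6.93 in controls, no call in Paro/Neo list 1 and 5.64 in Paro/Neo list 2. Of 27 genes of calcium handling and conduction, 13 border such a stretch, and Gja1, Kcnh2, Kcnj2 and Slc8a1 flanked a distant region. The stretches beside this list held 8 distant regions, or 0.886 per Mb. Gja1 encodes the main connexin, or gap junction protein, of the ventricle, and chr10:56980769-56981109 lay 590.4 kb from it with folds of 10.6, 11.3, 9.64 and 5.11.

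Cell cycle genes were represented by a pair. Of 27 cell cycle drivers, 8 border a stretch more than 50 kb from genes, and Myc and Mki67 flanked distant regions. The stretches beside this list held 7 distant regions, or 0.980 per Mb. Their median distant space was 325 kb, and all stretches with 200 to 500 kb of it held 0.987 per Mb. Of 10 genes of CDK inhibitors and pocket proteins, 0 flanked a distant region, although only 2 of those border such a stretch. The region chr15:61766730-61767036 lay 218.3 kb from Myc, a transcription factor that drives growth, with folds of 9.04, 7.47, 5.56 and 4.94. Farther out, at 523.1 kb from Myc, chr15:62513479-62513861 had folds of 9.37, 9.46, 8.11 and 7.04. The region chr7:135802495-135803015 lay 86.0 kb from Mki67, the gene of the proliferation marker Ki-67, with folds of 7.06, 5.92, 4.18 and 4.37. Myc thus had a distant region in all 4 lists at both distances, and so did Mki67 at its nearest one. Of the 5 distant regions between Mki67 and Mgmt, 5 were called in each control list, 2 in Paro/Neo list 1 and 1 in Paro/Neo list 2.

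Cadherin and protocadherin genes, which encode cell adhesion proteins, flanked distant regions at a density near that of other large stretches. Of the 23 matched genes, 21 border a stretch more than 50 kb from genes, and 16 flanked a distant region. Of all genes that border such a stretch, 16.3% did. The density beside this list was 0.293 per Mb, and over all stretches it was 0.572. The distant space beside these genes had a median of 1786 kb, and all stretches with 1000 kb or more of it held 0.269 per Mb. Of 43 axon guidance and neuronal adhesion genes, 37 border such a stretch and 15 flanked a distant region, at 0.359 per Mb. The median distant space beside them was 820 kb, and all stretches with 500 to 1000 kb of it held 0.628 per Mb. Of 40 growth factor and signalling genes, 32 border such a stretch and 7 flanked a distant region, at 0.679 per Mb. Among the 7 was Fgfr2, whose region 342.5 kb away had folds of 8.46, 8.02, 8.33 and 8.21. The median distant space beside this list was 275 kb. Of 28 markers of fibroblasts, endothelial, mural and immune cells, 12 border such a stretch, and Cdh5, Col3a1, Postn and Tcf21 flanked a distant region. The density beside this list, 1.07 per Mb, rests on 5 distant regions. The median distant space beside these markers was 239 kb, and all stretches with 200 to 500 kb of it held 0.987 per Mb. Which cells of the ventricle carried any of these peaks was not tested.

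**Figure D1:**
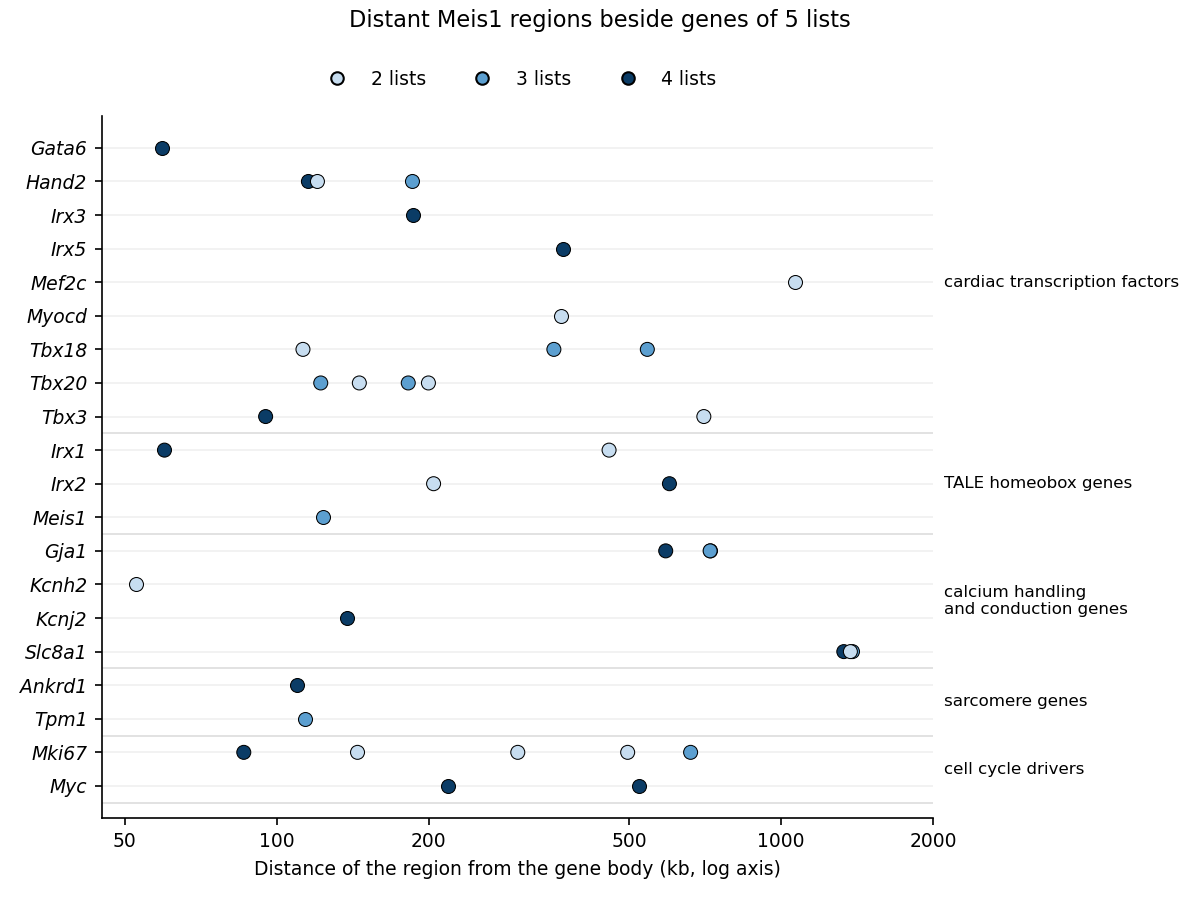
Each point is a distant region, placed by its distance in kb (log axis) from a flanking gene, for the genes shown of the lists of cardiac transcription factor, TALE, calcium handling and conduction, sarcomere and cell cycle genes. Shade gives the number of Meis1 lists that called it, and Tbx20 has 4 regions, none of them in all 4 lists.

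Another distant region lay within 100 kb of 167 of the 502 (33.3%, exact binomial 95% interval 29.2 to 37.6), and 36.0% of near regions had another near region as close. Within 50 kb the shares were 24.7% and 26.0%, and within 500 kb they were 50.6% and 70.8%. Linking distant regions at 100 kb gave 335 single regions, 54 groups of 2, 13 of 3, 3 of 4 and 1 of 8. Of 2495 stretches between neighbouring genes that reach more than 50 kb from both, 349 held a distant region, and 35 of these held 3 or more, with 118 regions in all. The other 8 distant regions lay before the first gene of chromosome 9.

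The fullest of the 2495 stretches lay between Slc4a3 and Epha4 and between Zfp608 and Gramd3, with 6 distant regions each, and between Mki67 and Mgmt, with 5. Between Thap1 and Zfp703 there were 4, of which 3 were called in all 4 lists. Zfp608 is a zinc finger gene. In its stretch, chr18:55761859-55762295 was called in all 4 lists with folds of 10.5, 8.36, 9.25 and 6.13.

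The groups of linked regions differed in the strength of their members. Between Tmx1 and Frmd6, 4 regions stood within 45.2 kb at chr12:70611920-70657158. All 4 were called in each control list, 2 in Paro/Neo list 1 and 1 in Paro/Neo list 2. The group included chr12:70654417-70654946, at a mean percentile of 96.7, beside chr12:70656714-70657158 at 37.4. In a group of 4 at chr14:76631348-76829159, between Serp2 and Lacc1, the highest mean percentile was 60.2. This group was called at 4 and 3 regions in controls and at 2 and 1 after Paro/Neo. In a group of 3 at chr11:31522198-31606742, between Stc2 and Bod1, the highest mean percentile was 73.7. It was called at 3 and 3 in controls and at 2 and 1 after Paro/Neo. Fewer calls after Paro/Neo were seen over all 502 distant regions too, of which the 4 lists called 94.4, 91.0, 56.6 and 40.6%. The group of 8 at the start of the chromosome 9 sequence had more calls after Paro/Neo than in controls, and is described with the weak regions below.

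The question of how far distant regions were still called after Paro/Neo was asked in the 436 that both control lists called, whose place among the distant regions did not depend on the Paro/Neo lists. Both Paro/Neo lists called 137 of them (31.4%, exact binomial 95% interval 27.1 to 36.0, counting error only), against 30.0% of all regions called in both controls. One Paro/Neo list called 133 (30.5%), and neither called 166 (38.1%, interval 33.5 to 42.8), against 39.6% of all. For near regions, both lists called 467 of 1575 (29.7%) and neither called 631 (40.1%). The distant regions thus stood 1.77 percentage points above the near regions in the share kept in both lists. It was -1.03 with all Meis1 lists at equal length and -0.63 with the second replicates exchanged, and the intervals of the distant and near shares overlapped.

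The share kept was higher for stronger regions, distant and near alike. With regions in quartiles of their strength in the controls, from weakest to strongest, both Paro/Neo lists called 3.85, 13.8, 29.1 and 73.3% of distant regions. For near regions the shares were 4.51, 12.2, 26.6 and 77.0%. Distance from genes gave no steady order: 51 of 151 were kept at 50 to 100 kb, 42 of 135 at 100 to 200 kb, 32 of 113 at 200 to 500 kb, 12 of 30 at 500 to 1000 kb and 0 of 7 beyond 1000 kb. Distant regions with another within 100 kb were kept in 30.6% of cases, and those without in 31.8%.

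**Figure D2:**
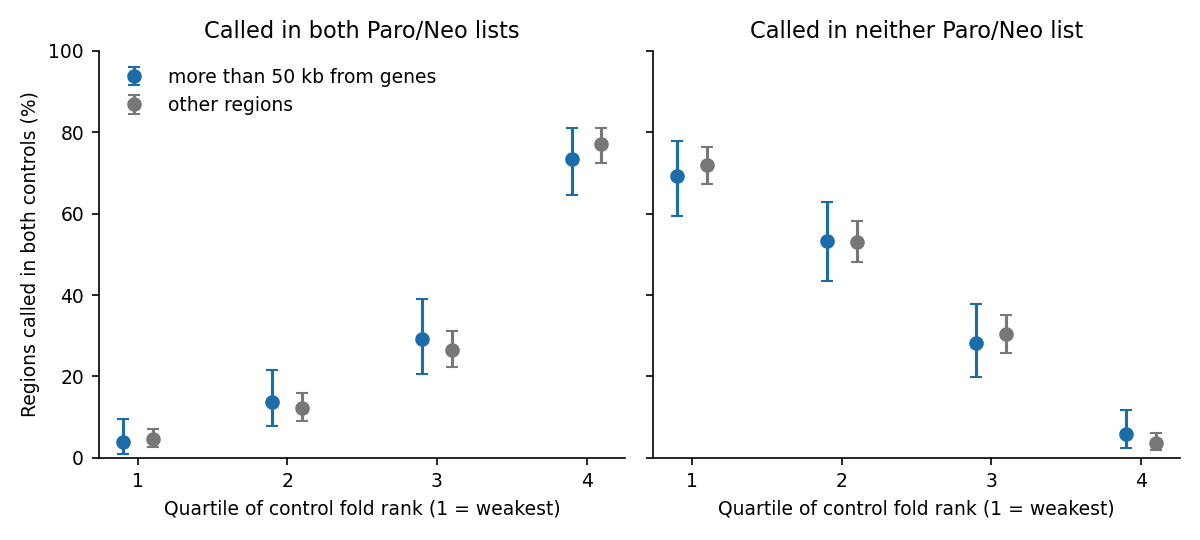
Share in percent of the regions called in both controls that both Paro/Neo lists (left) or neither (right) called, by quartile of control strength, for distant (blue) and near regions (grey). Points are shares and bars are exact binomial 95% intervals; the share kept of distant regions goes from 3.85% in the weakest to 73.3% in the strongest quartile, and the bars of distant and near regions overlap in each quartile.

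Each single list showed the same order of libraries for distant and near regions. Distant regions were called at 474 and 457 of 502 in controls (94.4 and 91.0%) and at 284 and 204 after Paro/Neo (56.6 and 40.6%). Near regions were called at 93.7, 92.9, 55.0 and 37.3%. Among the 502, 137 (27.3%) were in all 4 lists, against 26.1% of all 2312, 166 (33.1%) were in both controls alone, against 34.5%, and 7 (1.39%) were in both Paro/Neo lists alone, against 0.649%. Another 97 were in both controls and Paro/Neo list 1 and 36 in both controls and Paro/Neo list 2.

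Before merging, the lists held 753 and 633 distant peaks in controls and 351 and 246 after Paro/Neo. The means were 693 ± 84.9 (SD, n = 2) and 298.5 ± 74.2 (SD, n = 2), a log2 difference of -1.23, and the groups did not overlap. Exact two-sided permutation of the 4 libraries gave p = 0.33, the smallest p that 2 against 2 allows, so no difference could pass a threshold of 0.05. With lists of equal length the log2 difference was 0.092, and with the second replicates exchanged between groups it was 0.13. As a share of each list's autosomal peaks, distant peaks were 21.6 and 20.2% in controls and 23.0 and 24.4% after Paro/Neo. The difference of 2.78 percentage points (20.9 ± 0.94 against 23.7 ± 0.98, SD, n = 2 each) had an exact two-sided permutation p = 0.33, and it was -1.36 with the second replicates exchanged.

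**Figure D3:**
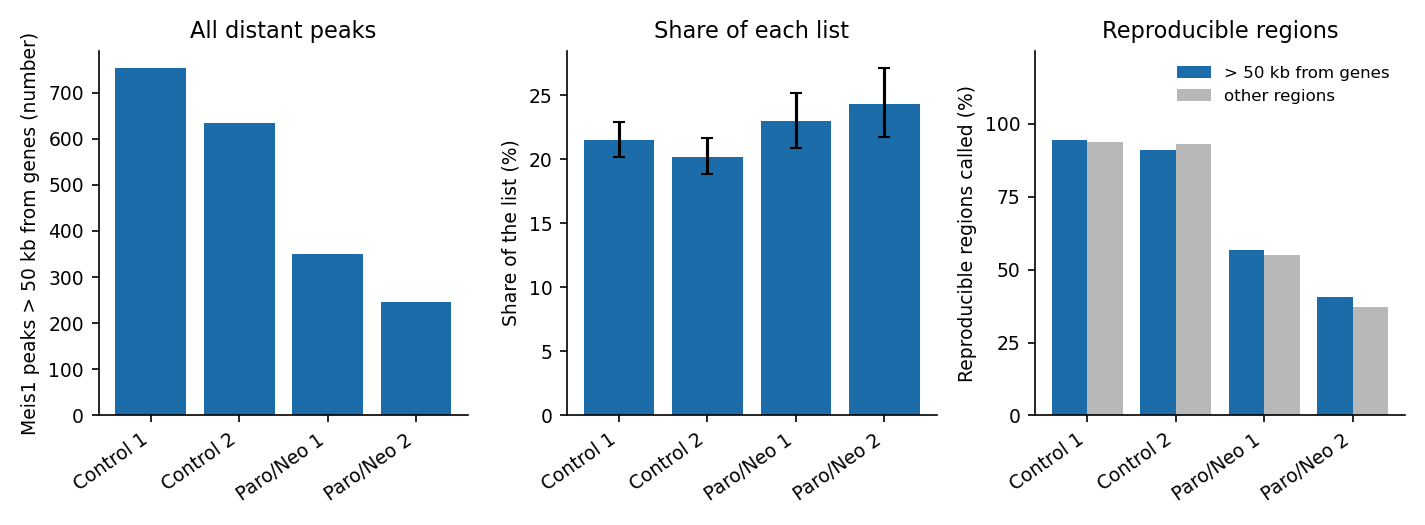
For each Meis1 list, the number of peaks more than 50 kb from genes (left), their share of the list in percent with exact binomial 95% intervals (middle), and the share of the merged distant (blue) and near regions (grey) that the list called (right). The number of distant peaks runs from 753 in control 1 to 246 in Paro/Neo 2, and their share from 20.2 to 24.4%.

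Distant regions called in 2 lists had a median mean percentile of 43.2, against 56.5 for those in 3 lists and 75.8 for those in 4. The 5 strongest of those in both controls alone lay near genes of different kinds. At chr10:96708470-96708805, 85.7 kb from Btg1, an antiproliferative gene, the folds were 7.89 and 10.6 and the mean percentile was 94.2. At chr8:36310027-36310341, 60.7 kb from Lonrf1, which encodes a ring finger protein, they were 7.92 and 7.06. At chr13:103494414-103494752, 159.3 kb from the kinase gene Mast4, they were 7.69 and 6.19. At chr6:35932926-35933166, between Mtpn and the muscarinic receptor gene Chrm2, they were 7.35 and 6.23. At chr4:56288055-56288329, 451.7 kb from Actl7b and 755.6 kb from Klf4, they were 8.59 and 5.76.

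Of the 7 regions in both Paro/Neo lists alone, 4 had folds near the middle or low end of those lists. At chr4:81178899-81179130, 99.4 kb from Mpdz, which encodes a scaffold protein of cell junctions, the folds were 5.04 and 5.23. At chr5:133173114-133173638, 629.9 kb from Auts2, they were 4.95 and 3.74. At chr10:38882248-38882630, 60.5 kb from Rfpl4b and 82.9 kb from the laminin gene Lama4, they were 3.80 and 4.28. At chr10:23687079-23687349, 97.8 kb from Rps12 and 336.2 kb from the transcription cofactor gene Eya4, they were 3.76 and 4.20. The other 3 had folds under 2.5 and belong to the weak regions described last.

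Hoxb13 peaks lay on a smaller share of distant than of near regions in 3 of the 4 Hoxb13 lists, a difference that did not pass the test. A Hoxb13 peak shared at least 1 bp with 26 and 13 of the 502 distant regions in the control lists and with 13 and 135 in the Paro/Neo lists (5.18, 2.59, 2.59 and 26.9%). For near regions the shares were 9.45, 2.82, 1.99 and 40.1%, so Paro/Neo list 2 was the highest for both, as it was in length. Distant minus near was -4.28 percentage points (SD 6.33, n = 4 libraries), with an exact two-sided sign permutation p = 0.375. The Paro/Neo minus control difference on distant regions was 10.9 percentage points, with an exact two-sided permutation p = 1, and it was -1.29 without Hoxb13 Paro/Neo replicate 2.

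Some Hoxb13 list held a peak at 140 distant regions (27.9%), against 37.6% of all 2312 Meis1 regions. For 111 of the 140 it was Paro/Neo list 2 alone. At least 2 Hoxb13 lists held a peak at 24 (4.78%), against 8.3% of all and 168 near regions (9.28%). Without Hoxb13 Paro/Neo replicate 2 these counts were 12 distant and 58 near, and without Hoxb13 control replicate 1 they were 14 and 58. Seen from Hoxb13, of 4366 regions called in at least 2 of its lists 82 (1.88%) lay more than 50 kb from genes. A distant Meis1 region overlapped 24 of those 82 (29.3%), and a near Meis1 region overlapped 196 of the 4284 others (4.58%). Of the 24, 12 overlapped the weak Meis1 regions described last; without these, the count was 12 of 70 (17.1%). With Hoxb13 Paro/Neo replicate 2 left out as well it was 1 of 14, and with control replicate 1 left out as well it was 3 of 15.

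The share of all autosomal peaks that lay more than 50 kb from genes did not overlap between the antibodies. It was 20.2 to 24.4% in the 4 Meis1 lists and 3.39, 4.33, 4.81 and 5.87% in the Hoxb13 lists. The means were 22.3 ± 1.78 and 4.60 ± 1.03 (SD, n = 4 each), a difference of 17.7 percentage points. The exact two-sided permutation p, with antibodies exchanged within treatments, was 0.0556, the smallest it can give. This comparison was added after its values were seen. The antibodies were run as separate sets of samples with their own inputs, so the antibody and the set cannot be told apart.

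**Figure D4:**
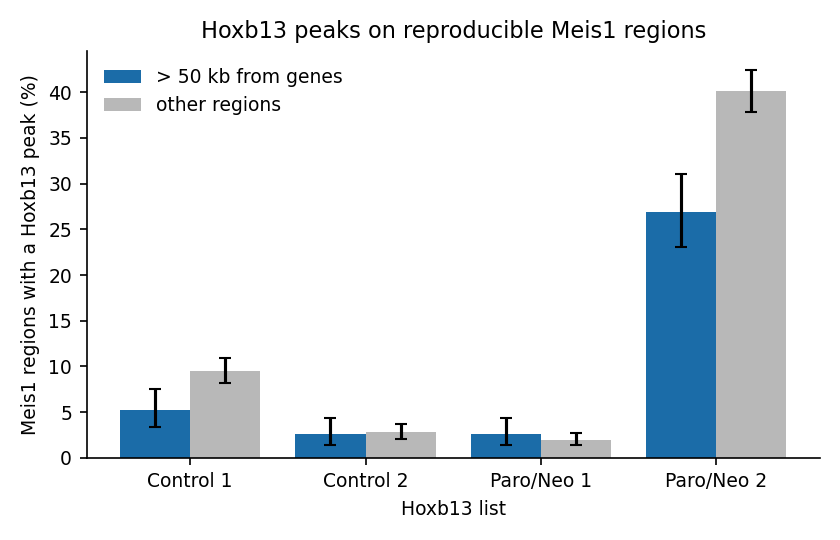
Share in percent of distant (blue) and near Meis1 regions (grey) that share bases with a peak of each Hoxb13 list, with exact binomial 95% intervals as bars. Paro/Neo list 2 reaches 26.9% of distant and 40.1% of near regions, and the other lists reach at most 9.45% of either.

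Hoxb13 peaks lay on 126 distant regions with a Meis1 fold above 2.5, on 123 of them in Hoxb13 Paro/Neo list 2. At least 2 lists held a peak at 12 of the 126, of which 12 were in Hoxb13 Paro/Neo list 2 and 11 of these also in control list 1. The strongest for Meis1 was the region near Lbh, where Hoxb13 folds were 2.73 in control list 1 and 3.55 in Paro/Neo list 2. At the region 590.4 kb from Gja1 they were 2.95 and 3.20, and at the region 86.0 kb from Mki67 they were 3.15 and 2.86. At chr9:61655523-61655903, 237.0 kb from the corepressor gene Tle3, they were 3.78 and 2.85.

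The region with the highest Hoxb13 folds of those named was chr16:30008645-30009190, 56.2 kb from Hes1, a Notch target and transcriptional repressor. Hoxb13 folds there were 4.46 in control list 1, 3.41 in Paro/Neo list 1 and 5.24 in Paro/Neo list 2. Meis1 folds were 4.68 and 4.44 in controls, with no Meis1 call after Paro/Neo. It reaches the promoter window of 4632428C04Rik, whose shared bases with 1 core are printed above. The region at BC002059, with 3 cores in its printed sequence, had Hoxb13 folds of 3.77 in control list 1 and 4.31 in Paro/Neo list 2.

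A small set of distant regions had weak Meis1 peaks and Hoxb13 peaks in most lists. In 15 of 502 (2.99%) the highest deposited Meis1 fold was below 2.5, against 7 of 1810 near regions (0.387%). The threshold was set after the values were seen, at a gap: the highest of the 15 was 2.33 and the next distant region had 3.41. The group of 8 at chr9:3000191-3038338, 296.9 kb before Alkbh8, was made of these, and so were 3 regions within chr2:98662256-98667313. One was chr17:39843017-39848821, which overlaps the ribosomal RNA gene Rn18s-rs5 and is 5805 bp long.

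The chromosome 9 group was called at 3 and 4 of its 8 regions in controls and at 6 and 8 after Paro/Neo, the reverse of the length of the lists. The highest mean Meis1 percentile among the 8 was 1.91, so they stood at the bottom of the lists that called them. Hoxb13 peaks lay on 7 of the 8. Of the 15 weak regions, 12 had a Hoxb13 peak in at least 2 lists and 11 in all 4, with Hoxb13 folds of 1.44 to 1.98. Their content of repeats was not tested.

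Hoxb13 peaks lay on 12, 13, 11 and 12 of these 15 in the 4 lists. The Hoxb13 overlap of distant regions without the 15 therefore had to be lower in each list. It was 14, 0, 2 and 123 of 487 regions (2.87, 0, 0.411 and 25.3%). At least 2 Hoxb13 lists held a peak at 12 (2.46%), against 163 of 1803 near regions (9.04%) filtered alike. Leaving out Hoxb13 Paro/Neo replicate 2 as well left 1 distant and 54 near regions, and leaving out control replicate 1 left 2 and 54. Distant minus near was -6.26 percentage points, lower in 4 of 4 lists, with an exact two-sided sign permutation p = 0.125, the smallest 4 libraries allow. Because the fold threshold was set after the values were seen, these values describe the filtered set and do not serve as a test. The regions called in both Paro/Neo lists alone fell from 7 to 4.

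**Figure D5:**
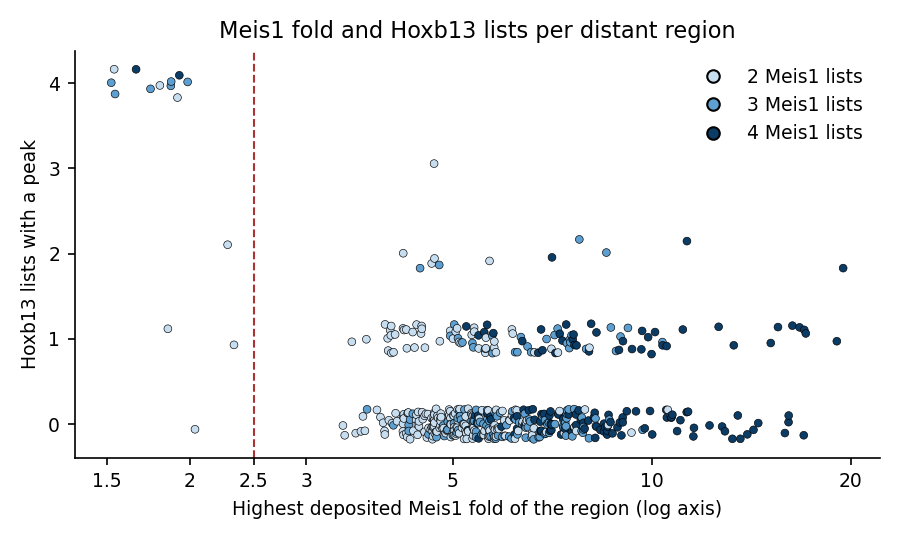
Each point is a distant region, placed by its highest deposited Meis1 fold (log axis) and the number of Hoxb13 lists with a peak on it, spread a little up and down for legibility. Shade gives the number of Meis1 lists; of the 15 regions left of the dashed line at a fold of 2.5, 11 have a peak in all 4 Hoxb13 lists.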

How the data were processed

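8 peak lists from ChIP-seq of mouse ventricles were used, 4 for Meis1 and 4 for Hoxb13, with 2 control and 2 Paro/Neo libraries each, grouped by the labels. The lists are MACS2 broad peaks on mm10, made after Bowtie2 alignment, per the submitters' processing notes, with options and control libraries not given in the sources used here. Each deposited peak has a score, a fold enrichment, a −log10 p-value and a −log10 q-value, all as the authors' caller wrote them; the score and p-value were read only to check the files. Whether the 2 hearts named per sample were pooled is not stated, so p-values measure the spread between these samples.

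Peaks on chromosomes 1 to 19 sharing at least 1 bp were merged, and distances were taken to RefSeq protein-coding gene bodies (GRCm38.p6). Shares carry exact Clopper-Pearson 95% intervals, which cover counting error only. Groups were compared by exact two-sided permutation over libraries. Python 3.11.15, pandas 2.3.3, numpy 2.4.6 and scipy 1.17.1 were used, and merging and distances were checked on simulated peaks. Regions named were the 12 with the highest mean fold percentile in 4 lists, the 5 strongest in both controls alone, all in both Paro/Neo lists alone, the 3 farthest, the 5 largest groups, the 3 on each side of 50 kb, and at most 10 with Hoxb13 peaks in at least 2 lists, by Meis1 percentile; genes named were their neighbours and flanking members of the lists; other regions were chosen after their values were seen. The members and gene lists were chosen with earlier results of these data known. The fold threshold of 2.5 and the comparison of antibodies were added after values were seen. A result for 1 flanking gene is not reported here, and the plot of flanking genes leaves it out.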

Additional observations from a re-analysis of the deposited data

How the results depend on the processing

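Of 97 recomputed values, 82 were counted as the same, 11 moved and 4 reversed. The number of distant regions was the same within a fixed ratio, and shares and the retention difference within a binomial interval. Tested differences were the same if they kept their sign, since none could pass 0.05 with so few libraries. The retention difference counted as the same also where it turned negative, at -1.03 with equal list lengths and -0.63 with second replicates exchanged. The number of distant regions was 331 beyond 100 kb, 278 in at least 3 lists, 114 away from all RefSeq genes, 224 with lists of equal length, and 303 to 479 with 1 library left out. Their share of the regions called in 2 or more lists was 28.6% beyond 25 kb, 14.3% beyond 100 kb and 4.93% away from all RefSeq genes. The share with another distant region close by was 24.7% at 50 kb and 50.6% at 500 kb. The log2 difference in distant peaks, Paro/Neo minus control, was 0.092 (exact permutation p = 0.667) with equal lengths and 0.13 (p = 1) with second replicates exchanged, and it ran from -1.49 to -0.98 with 1 library left out. The difference in their share was -1.36 percentage points exchanged, and 2.08 to 3.47 with 1 library left out. The difference in Hoxb13 overlap ran from -1.29, without Hoxb13 Paro/Neo replicate 2, to 23.0. The cause of each was not tested. Deviations of same-numbered samples correlated at 0.051 for Meis1 and -0.442 for Hoxb13. With 2 samples per group and lists of unlike length, this cannot show whether same-numbered samples share more than a number. With a replicate block the log2 difference stayed -1.23 (exact permutation p = 0.5) and the share difference 2.78 (exact permutation p = 0.5). The Hoxb13 difference stayed 10.9 with this block (exact permutation p = 1). The crossed pairing for Hoxb13, added after seeing the data, gave 10.9 (exact permutation p = 1). The list lengths limit these values: a region missing from a short list may be below its threshold, and read depth was not given in the sources used here.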
